A study of Mus musculus with 20 samples.

Results

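Livers of mice that had lived for 485 days under a medium rate of gamma radiation (M1) were compared with livers of mice kept as long under a low rate (L1). The comparison holds 6 of the 20 expression arrays of the series, 3 of M1 and 3 of L1, chosen by their titles alone, and each array carried the RNA of 1 mouse. M1 mice received 0.858 mGy per day and 416 mGy in all. L1 mice received 0.042 mGy per day and 20.6 mGy in all, so that M1 had a dose-rate 20.4 times higher. All were male C57BL/6J mice kept free of specific pathogens, aged 8 weeks when whole-body exposure to 137Cs gamma rays began, exposed for 22 h per day and killed as soon as irradiation ended. The study also held a high dose-rate group (H1, 16.6 mGy per day), 1 array of RNA pooled from 3 unirradiated mice (C1), and a second experiment of 401 days with its own medium (M2, 1 mGy per day) and low (L2, 0.05 mGy per day) groups. That experiment also had a high group (H2, 20 mGy per day) and 1 array pooled from 6 unirradiated mice (C2). Its start age and hours of exposure per day were not listed. All 8 groups entered the model used below. The labels name neither the hour of killing nor whether mice had been fed.

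Ionizing radiation breaks DNA, and cells answer through the kinase ATM and the transcription factor p53, which induces cell cycle inhibitors and repair genes. Hepatocytes make up most of the liver's mass and switch genes of glucose, lipid and bile acid metabolism with feeding and time of day. Hepatocytes also secrete acute phase proteins when inflammatory cytokines reach them, while Kupffer cells and other resident immune cells present antigens on MHC class II molecules.

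Signals were the deposited MAS5 intensities, which had been scaled to 1 trimmed mean on every array. Array medians were 84.7 to 96.7 in M1 and 85.6 to 104.8 in L1. RNA integrity was read from the Gapdh control probe sets, whose 3' over 5' ratio was 0.701 to 0.753 in M1 and 0.714 to 0.769 in L1 (exact two-sided permutation p = 0.7), and 0.871 to 0.993 in experiment 2. For actin the ratio was 2.05 to 2.13 in M1 and 1.85 to 2.06 in L1 (exact permutation p = 0.2), where 0.1 is the smallest p that 3 against 3 mice allow. One array stood apart. L1 mouse 2 lay alone at -39.9 on the second principal component of experiment 1 (14.0% of the variance), where the other 9 arrays lay between -5.79 and 16.1, and its correlations with the other 5 arrays of M1 and L1 were 0.957 to 0.961, against 0.960 to 0.970 among those 5.

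The liver label held. Albumin (Alb), the main plasma protein made by hepatocytes, had signals of 58549.8, 65050.5 and 63355 in M1 mice, against 56108, 56344 and 51943 in L1 mice. Summed over the 12 hepatocyte markers on the array, the signal was 522265 to 567344 in M1 and 473922 to 515999 in L1 (exact permutation p = 0.1). Markers of bile duct, T and NK, dendritic, muscle, mesothelial and mast cells had no member with a mean signal over 500.

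Log2 differences, M1 minus L1, were taken after adding the 10th percentile of all signals (7.12) to each signal, so that differences at low signal come out smaller than they are. Of 11206 genes tested with limma, 0 passed a Benjamini-Hochberg adjusted p of 0.05, and the smallest adjusted p was 0.269. An unadjusted limma p under 0.05 was found for 924 genes (8.25% of those tested), 462 higher and 462 lower in M1 (4.12% each), where a p under 0.05 is met by 560 of as many genes on average by chance. With each array centred on its median the split was 468 higher and 239 lower. The M1 and L1 mice did not overlap for 1259 genes (11.2%), 656 higher (5.85%) and 603 lower (5.38%). The genes below are therefore described by their values, and none of them passed the test over all genes in the comparison of the 6 mice. Gene lists were chosen with earlier results of these data known, and the members of a list were read in the same 6 mice. Counts over a list, set beside the share of all genes, are therefore description and not a test.

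Among the genes nearest to the threshold, those higher in M1 included several that control glucose storage and release. Ppp1r3c encodes the subunit that brings protein phosphatase 1 to glycogen and so favours glycogen synthesis. Its signals were 7112, 9097 and 6733 in M1 mice, against 3888, 2753 and 4199 in L1 mice, and 5242 in the C1 pool. The lowest M1 mouse was above the highest L1 mouse, and the means were 7647 ± 1269.7 and 3613 ± 761 (SD, n = 3 each), a log2 difference of 1.09 ± 0.19 (SE, limma adjusted p = 0.269). Without any 1 of the 6 mice the difference ran from 0.91 to 1.21, with limma adjusted p of 0.0709 to 0.644. G6pc encodes the catalytic subunit of glucose-6-phosphatase, the last step of glucose release. G6pc signals were 14292, 17445 and 17254 in M1 mice, against 8849, 8776 and 11026 in L1 mice, and 9009.9 in the pool. The groups did not overlap, and the difference was 0.78 ± 0.34 (limma adjusted p = 0.583). Pck1, which encodes phosphoenolpyruvate carboxykinase of gluconeogenesis and was named after its values were seen, had 19982, 18437 and 21288 in M1 mice, against 18429.6, 14490.0 and 12247 in L1 mice. These too did not overlap, by a narrow margin, and the difference was 0.42 ± 0.20 (limma adjusted p = 0.608).

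The whole list of insulin, glycogen and gluconeogenesis genes did not lean one way. Of 31 members tested, 15 were higher and 16 lower in M1, with a median log2 difference of -0.01, and that of all genes was close to 0. Unadjusted p under 0.05 was met by 4 higher members (Ppp1r3c, G6pc, the glucose transporter gene Slc2a2 at 0.26 ± 0.12 and the tyrosine aminotransferase gene Tat at 0.42 ± 0.17) and by 1 lower member, the glucagon receptor gene Gcgr at -0.30 ± 0.14, against 4.12% of all genes in each direction. Summed signal of the 33 members on the array was 234651 to 259414 in M1 and 212317 to 221083 in L1, without overlap (exact permutation p = 0.1). Such a sum rests most on the members with the highest signal. Of all genes with a mean signal over 20000, 83.3% were higher in M1, or 56.9% after quantile normalization, so the sum is not particular to this list. The genes of glycogen synthase (Gys2, 0.07 ± 0.10) and glycogen phosphorylase (Pygl, 0.07 ± 0.10), both named after their values were seen, lay within the spread between mice. So did Fbp1, a gluconeogenic phosphatase gene (0.12 ± 0.10), and Igfbp1, a gene that insulin represses (0.13 ± 0.35), which were also named after their values were seen. For Igfbp1 the difference turned to -0.36 without L1 mouse 2, whose signal of 1623 was the lowest of the 6.

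G0s2 encodes an inhibitor of adipose triglyceride lipase, the enzyme that opens lipid droplets. Its signals were 9307, 13165 and 8657 in M1 mice, against 4928, 4414 and 4815 in L1 mice, and 8705 in the pool. All 3 L1 mice lay close together, under every M1 mouse and under the pool, and the difference was 1.11 ± 0.27 (limma adjusted p = 0.324). Angptl8, a hormone gene induced by feeding, had 2143, 2623 and 1784 in M1 mice, against 1039, 937 and 1394 in L1 mice. The pool was at 2159.6, within the M1 range and above the L1 range, and the difference was 0.96 ± 0.32 (limma adjusted p = 0.538). Angptl4, which encodes an inhibitor of lipoprotein lipase and is induced by fasting, went the other way. Its signals were 1709, 1771 and 1354 in M1 mice, against 3182, 3582 and 1839 in L1 mice, and 4782 in the pool. The difference was -0.78 ± 0.28 (limma adjusted p = 0.549), and both groups lay below the pool. Another probe set of Angptl4, below the filter on low signals, had the opposite sign. The labels do not record feeding, and its part in these values was not tested. In the lipid droplet and PPAR gamma list 2 of 22 genes had separate groups, both higher, against 5.85% of all genes in that direction. Among the other 21 lipid droplet and PPAR gamma genes tested, none had an unadjusted p under 0.05, and 14 of all 22 were lower in M1 (median -0.07, against 50.5% of all genes lower).

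**Figure D1:**
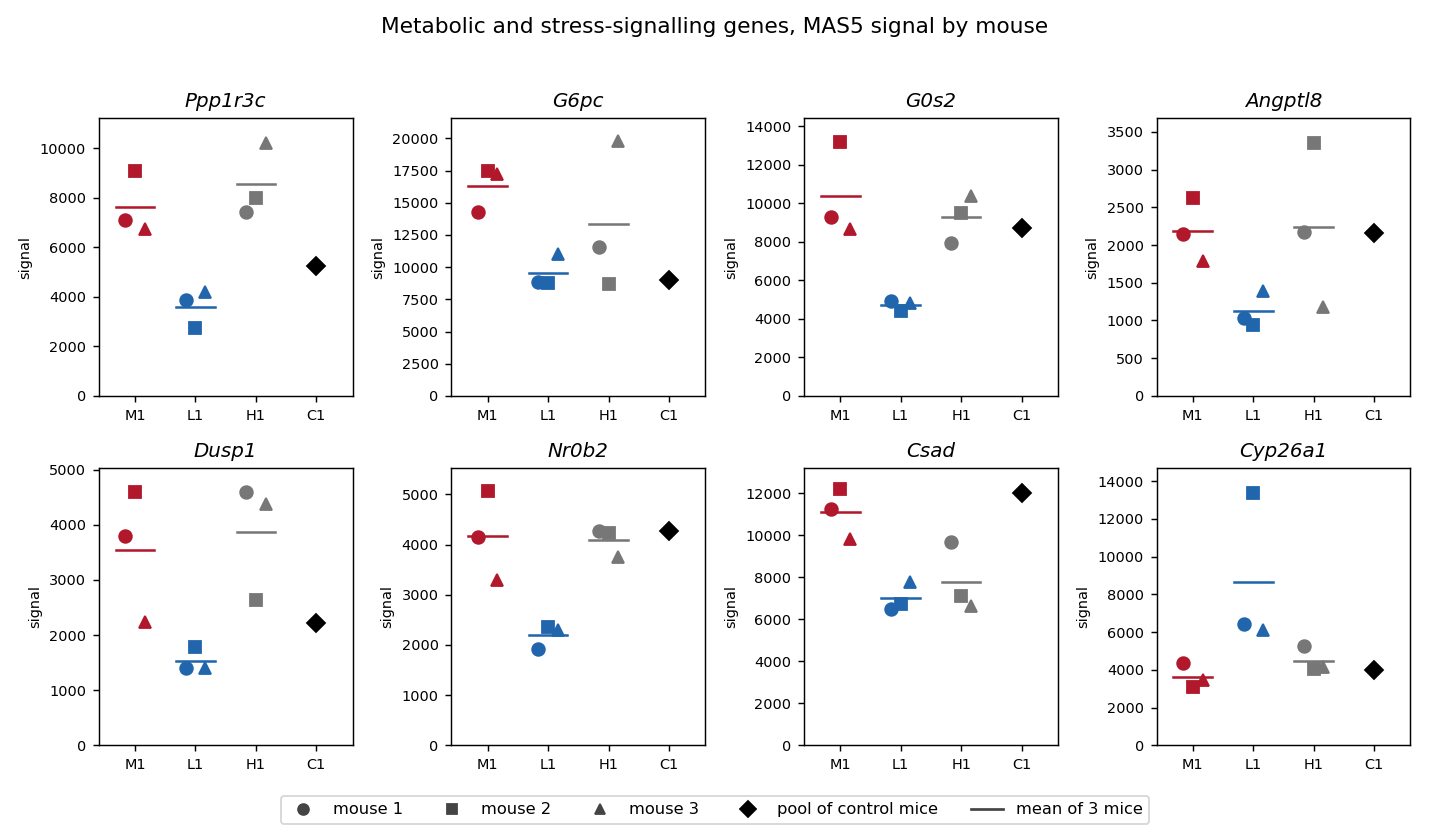
MAS5 signal (linear axis from 0) of 8 genes in each mouse of M1, L1 and H1 and in the C1 pool, with a line at the mean of each group of 3 mice. M1 and L1 mice did not overlap for any of the 8, with Ppp1r3c at 6733 to 9097 in M1 against 2753 to 4199 in L1, and Cyp26a1 was the 1 gene of the 8 that was lower in M1.

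Dusp1 encodes a phosphatase that switches off MAP kinases and is induced by stress and by glucocorticoids. Signals of Dusp1 were 3788, 4594 and 2234 in M1 mice, against 1401, 1786 and 1408 in L1 mice, and 2223 in the pool. M1 mice were above every L1 mouse but spread widely among themselves, and the difference was 1.15 ± 0.31 (limma adjusted p = 0.413). Nr0b2 encodes SHP, the receptor through which bile acids repress their own synthesis. It had 4158, 5067 and 3299 in M1 mice, against 1925, 2359 and 2289 in L1 mice, with 4277 in the pool and a difference of 0.91 ± 0.31 (limma adjusted p = 0.538). Csad, whose enzyme makes the taurine precursor used to conjugate bile acids, had 11252, 12194 and 9824 in M1 mice, against 6505, 6730.2 and 7759 in L1 mice. The pool was at 12037, within the M1 range, and the difference was 0.66 ± 0.15 (limma adjusted p = 0.293). Of 33 bile acid genes tested, 27 were higher in M1 (81.8%, against 49.5% of all genes), with a median of 0.13, or 0.07 after quantile normalization. Nr0b2, the oxysterol hydroxylase gene Cyp39a1 (0.55 ± 0.26) and the conjugating enzyme gene Baat (0.31 ± 0.14) were the 3 with an unadjusted p under 0.05, and 4 of the 33 had separate groups, all higher, against 4.12% and 5.85% of all genes in that direction.

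Cyp26a1, which encodes the hydroxylase that clears retinoic acid, was lower in M1. Its signals were 4382, 3093 and 3438 in M1 mice, against 6443, 13381 and 6105 in L1 mice, and 4015 in the pool, a difference of -1.16 ± 0.35 (limma adjusted p = 0.514). Groups did not overlap, and L1 mouse 2 held the highest signal by far. Without that mouse the difference was -0.80 ± 0.35.

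Other genes with high signal and separate groups were named by size. Higher in M1 were Slc25a25, a mitochondrial ATP-Mg carrier gene (0.80 ± 0.35), and Efna1, which encodes ephrin-A1 (0.71 ± 0.18). Their signals were 2970.2, 2541 and 2077 in M1 against 1688, 1379 and 1270.3 in L1 for Slc25a25, and 1875, 2464 and 1531 in M1 against 1143, 1251 and 1112 in L1 for Efna1. Lower in M1 were Phlda1, a pleckstrin homology-like domain gene (-1.10 ± 0.45), and Arid5b, a chromatin cofactor gene (-0.81 ± 0.36). Phlda1 had 4765, 1956 and 5283 in M1 mice, against 8444, 9852 and 5794 in L1 mice, and Arid5b had 1286, 1241 and 1418 in M1 mice, against 2440.4, 3262 and 1531 in L1 mice. Tifa, an adaptor of TRAF signalling (-0.77 ± 0.22), and Serpinb1a, an inhibitor of neutrophil proteases (-0.74 ± 0.39), were lower in M1 as well. For Serpinb1a the size came from L1 mouse 2, with 6744 against 3001 and 2977 in the other L1 mice, and without it the difference was -0.35 ± 0.40.

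By smallest p, the remaining genes higher in M1 were Zfp148, Dennd11, Slc25a48, Fzd6, Pear1 and Clint1. Zfp148 encodes a zinc finger transcription factor and had 1558, 1826 and 1646 in M1 mice, against 1265, 1150.3 and 1019.7 in L1 mice, a difference of 0.55 ± 0.11 (limma adjusted p = 0.27). The sign was opposite in 2 of its 5 other probe sets above the filter. Clint1, an adaptor of clathrin-coated vesicles, had 4478, 4602 and 4959 in M1 mice, against 3674, 3551 and 3566 in L1 mice, a small difference of 0.38 ± 0.08 with tight groups (limma adjusted p = 0.293). Dennd11, a DENN domain gene, had 1093, 1014 and 991 in M1 mice, against 733, 694 and 592 in L1 mice, a difference of 0.62 ± 0.13 (limma adjusted p = 0.293). Fzd6, a Wnt receptor gene (1.13 ± 0.25), Pear1, a platelet and endothelial receptor gene (1.18 ± 0.26), and Slc25a48, a mitochondrial carrier gene (1.82 ± 0.40), were measured at low signal, no higher than 325 in any of the 6 mice, and the sign was opposite in 2 of 3 other probe sets of Pear1 and in 1 of 2 of each of the other 2 genes.

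By the same order, genes lower in M1 were Rrp9, Pdrg1, H2bc22, Fam71f1, Ppt1, Ace, Sptlc2 and Tsc22d4. Pdrg1, named for its regulation by p53 and DNA damage, had 421, 502 and 443 in M1 mice, against 698, 726 and 783 in L1 mice, a difference of -0.69 ± 0.15 (limma adjusted p = 0.293), and 437 in the pool. Ppt1, a lysosomal enzyme that removes palmitate from proteins, had 662, 678 and 833 in M1 mice, against 1110.0, 953 and 1121 in L1 mice, a difference of -0.55 ± 0.13 (limma adjusted p = 0.31). Sptlc2, a subunit of the enzyme that starts sphingolipid synthesis, had 424, 336 and 575 in M1 mice, against 626, 729 and 783 in L1 mice, a difference of -0.70 ± 0.17 (limma adjusted p = 0.323). In all of these the groups were separate. The sign was opposite in 1 of 3 other probe sets of Pdrg1, 1 of 4 of Ppt1 and 1 of 2 of Sptlc2, all below the filter. Tsc22d4, a transcriptional regulator gene, was -0.72 ± 0.18, and Ace, the angiotensin-converting enzyme gene, was -1.19 ± 0.28, with 65.9, 105 and 138 in M1 mice, against 239, 254 and 212 in L1 mice. Signals were low for Rrp9, a component of the U3 ribonucleoprotein, with 14.98, 28.9 and 19.5 in M1 mice, against 79.7, 74.9 and 114 in L1 mice. They lay under the array medians in all 3 M1 mice and in 2 of the 3 L1 mice and may be background, which leaves the difference (-1.78 ± 0.35, limma adjusted p = 0.27) of uncertain size. The histone gene H2bc22 (-1.69 ± 0.37), whose probe set can also bind copies of it, and Fam71f1 (-1.34 ± 0.31) were at low signal too, at most 244 and 174 in M1.

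Genes of antigen presentation were lower in M1, and for most of them 2 of the 3 L1 mice stood above the rest. MHC class II molecules are pairs of an alpha and a beta chain that carry peptides from lysosomes to the surface of macrophages, dendritic cells and B cells. All 9 members tested of 13 on the array were lower in M1, with a median of -0.60. Unadjusted p under 0.05 was met by 6 of the 9, against 4.12% of all genes in that direction, and the groups did not overlap for 1 (all genes, 5.38%). The 9 are not independent of each other, and the list was chosen with earlier results of these data known. The other 4 members, among them the class II activator gene Ciita, were below the filter on low signals. H2-Ab1, the beta chain of I-A, had 509, 407 and 593 in M1 mice, against 1091, 566 and 1362 in L1 mice, and 433 in the pool. L1 mice 1 and 3 stood far above all others, while L1 mouse 2 lay within the M1 range, and the difference was -0.91 ± 0.24 (limma adjusted p = 0.366). Without L1 mouse 2 it was -1.28 ± 0.18 (limma adjusted p = 0.0227, with 0.0227 to 0.921 over all alternatives), the 1 setting of those tried that took a named gene past the threshold for M1 against L1.

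For the next 3 members L1 mouse 2 was again the lowest of the L1 mice. H2-Aa, the alpha chain of I-A, had 2030.1, 3055 and 3992 in M1 mice, against 4261, 3299 and 6605 in L1 mice, a difference of -0.63 ± 0.22 (limma adjusted p = 0.538). H2-Eb1, the beta chain of I-E, had 1309, 1254 and 1559 in M1 mice, against 2157, 1359.7 and 2744 in L1 mice, a difference of -0.55 ± 0.18 (limma adjusted p = 0.538). Lgmn, which encodes a lysosomal protease that processes antigens, had 1215, 959 and 1344 in M1 mice, against 1887, 1369.5 and 2146 in L1 mice, the 1 member with separate groups (-0.60 ± 0.19). L1 mouse 2 had the lowest signal of the 3 L1 mice in 7 of the 9 genes (77.8%, against 35.6% of all genes), and it lay at or below the highest M1 mouse in 6 of them. The median of the list was -0.83 without L1 mouse 2 and -0.41 without L1 mouse 3.

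Promoters of class II genes are known for a conserved module in which an X box is followed by a Y box that holds the letters GATTGG on 1 strand. The stretches of 110 bases before the start of 3 members of the list, picked by hand, are printed 5′ to 3′ (RefSeq, GRCm38.p6). Matches to GATTGG on either strand are in capitals. H2-DMb2, a chaperone chain of peptide loading, was added after its values were seen, which were 58.6, 19.4 and 92.3 in M1 mice, against 83.2, 201 and 138 in L1 mice, overlapping groups at low signal (-1.33 ± 0.65). H2-Ab1 is named only.
H2-Aa (chr17:34287824-34287933, minus strand): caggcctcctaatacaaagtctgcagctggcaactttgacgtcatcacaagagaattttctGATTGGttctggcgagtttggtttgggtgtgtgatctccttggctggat
H2-Eb1 (chr17:34305757-34305866, plus strand): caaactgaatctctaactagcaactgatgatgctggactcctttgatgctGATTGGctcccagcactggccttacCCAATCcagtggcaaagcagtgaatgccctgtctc
H2-DMb2 (chr17:34145139-34145248, plus strand): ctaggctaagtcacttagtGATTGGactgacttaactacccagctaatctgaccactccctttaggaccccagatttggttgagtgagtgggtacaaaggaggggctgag
Of 32851 promoters in the table, 9.25% held GATTGG on either strand in the same 110 bases. Matches were not counted over the class II list, so this share gives no comparison with it. H2-Eb1 held it 2 times, once on each strand. A match describes these letters, does not mark them as the Y box, and is no evidence of binding.

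Kupffer cell and macrophage markers were lower together with the class II genes. Of 15 tested, 12 were lower (median -0.29, with -0.16 without M1 mouse 2 and -0.19 without L1 mouse 3), and 4 of them had an unadjusted p under 0.05 (all genes, 4.12%). M1 and L1 mice overlapped for all 15 markers, where 5.38% of all genes were lower with separate groups. Their summed signal was 24647 to 35925 in M1 and 29027 to 40402 in L1 (exact permutation p = 0.2). The complement subunit gene C1qa, made in liver mainly by macrophages, had 1985, 1579 and 2443 in M1 mice, against 3326, 2227 and 3374 in L1 mice, a difference of -0.57 ± 0.21. C1qb (-0.61 ± 0.23), C1qc (-0.46 ± 0.21) and Cd5l, a macrophage-secreted lipid regulator (-0.49 ± 0.22), were close to it. The Kupffer cell receptor gene Clec4f (-0.29 ± 0.19) and the lysosomal macrophage marker Cd68 (-0.34 ± 0.23), both named after their values were seen, were lower by less. B and plasma cell markers summed to 2512 to 6155 in M1 and 2572 to 7591 in L1, and dendritic cell markers, none of which exceeded a mean of 500, to 532 to 737 in M1 and 489.8 to 801 in L1. In whole liver fewer cells of a type and less RNA per cell cannot be told apart, and the part of cell numbers in the class II result was not tested.

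Interferon-induced genes had the same 2 L1 mice on top. Of 43 tested, 37 were lower in M1 (median -0.36, with -0.51 without L1 mouse 2 and -0.23 without L1 mouse 3), 9 with an unadjusted p under 0.05, against 4.12% of all genes. Groups were separate for 3 of the 43, all lower, near the 5.38% of all genes in that direction. The highest of the 6 signals was in L1 mouse 3 for 27 genes and in L1 mouse 1 for 15, and in L1 mouse 2 for 0, though that mouse held the highest signal of 2119 of all 11206 genes. Irf7, the transcription factor that amplifies type I interferon, had 698, 493 and 518 in M1 mice, against 1354, 538 and 1359 in L1 mice, and 779 in the pool. L1 mouse 2 lay among the M1 mice, and the difference was -0.82 ± 0.28 (limma adjusted p = 0.538), or -1.26 ± 0.22 without that mouse (limma adjusted p = 0.108, with 0.108 to 0.921 over all alternatives). Oas1a, a sensor of double-stranded RNA, had 268, 359 and 271 in M1 mice, against 596, 366 and 605 in L1 mice (-0.77 ± 0.27). Irf9, which encodes the DNA-binding part of the interferon-stimulated complex (-0.64 ± 0.24), and Epsti1 (-1.04 ± 0.34) were lower as well. Levels in the H1 mice averaged 1293 for Irf7 and 690.1 for Oas1a.

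Immunity GTPases, which interferon gamma induces against intracellular microbes, were lower in 11 of 11 (median -0.36), 4 with an unadjusted p under 0.05 and 3 with separate groups, against 4.12% and 5.38% of all genes in that direction. Gbp6, a guanylate-binding protein gene, had 541, 507 and 641 in M1 mice, against 1273, 837 and 1177 in L1 mice, and 731 in the pool, a difference of -0.94 ± 0.26 (limma adjusted p = 0.455). Here L1 mouse 2 was also above every M1 mouse. Irgm2 had 859, 762 and 864 in M1 mice, against 1169, 1031 and 1132 in L1 mice (-0.42 ± 0.19), and Igtp had 1256, 1109.6 and 1730.4 in M1 mice, against 1847, 1653 and 2356 in L1 mice (-0.52 ± 0.19). Gbp2 was -0.71 ± 0.29, with L1 mouse 2 at 238 inside the M1 range of 213 to 375. Gbp genes are a family of close copies, so their probe sets can share signal.

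The interferon-stimulated response element is known as the sequence through which IRF factors act. Its repeat of GAAA is shown in capitals, as GAAA, any 2 bases and GAAA again on either strand, in the 110 bases before the start of 3 of these genes (RefSeq, GRCm38.p6).
Irgm2 (chr11:58214867-58214976, plus strand): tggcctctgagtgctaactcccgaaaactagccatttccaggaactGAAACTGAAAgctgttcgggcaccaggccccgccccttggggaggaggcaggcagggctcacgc
Igtp (chr11:58199446-58199555, plus strand): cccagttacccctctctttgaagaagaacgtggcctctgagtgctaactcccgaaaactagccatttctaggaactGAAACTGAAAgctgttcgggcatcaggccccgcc
Oas1a (chr5:120907526-120907635, minus strand): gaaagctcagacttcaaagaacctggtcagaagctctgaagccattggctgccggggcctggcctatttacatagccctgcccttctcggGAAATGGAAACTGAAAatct
Across the 32851 promoters 1.11% held it in those bases. The 3 genes were picked by hand and matches were not counted over the lists, so this share gives no comparison. The printed stretches of Irgm2 and Igtp are nearly the same letters over most of their length, so their matches are not independent. Oas1a held 2 matches that overlap each other.

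MHC class I genes leaned less. Of 18 tested, 14 were lower (median -0.15, or -0.10 without M1 mouse 2), 6 with an unadjusted p under 0.05 (4.12% of all genes). Groups were separate for 3 of the 18, all lower, against 5.38% of all genes in that direction. The immunoproteasome subunit genes Psmb9 (-0.61 ± 0.20) and Psmb8 (-0.55 ± 0.20), the peptide editor gene Tapbpl (-0.51 ± 0.19) and H2-M3 (-0.39 ± 0.15), a class I molecule that presents formylated peptides, had the smallest p. Psmb9 had 619.6, 537 and 883 in M1 mice, against 925, 1137 and 994 in L1 mice, and H2-M3 had 330.3, 363 and 369.7 in M1 mice, against 444, 423 and 536 in L1 mice, with separate groups in both.

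Acute phase genes were mostly lower in M1 than in L1, where 1 mouse stood far above the rest. Of 33 tested, 24 were lower in M1 (median -0.26), and 10 had an unadjusted p under 0.05, all lower (all genes, 4.12% in that direction). Groups were separate for 2 lower and 1 higher, against 5.38% and 5.85% of all genes. L1 mouse 1 held the highest of the 6 signals in 26 of the 33 (78.8%, against 19.4% of all genes). Saa2, a serum amyloid A gene that hepatocytes induce in inflammation, had 1144, 1465 and 4050.4 in M1 mice, against 44496, 2395 and 5712 in L1 mice, and 1366 in the pool. The first L1 mouse stood far above the other 5, whose ranges overlapped, and the difference was -2.16 ± 0.75 (limma adjusted p = 0.538) with that mouse and -0.96 ± 0.57 without it. Saa1, its near-identical neighbour, was named after its values were seen and had 4225, 4299 and 11718 in M1 mice, against 53682, 6834 and 15421 in L1 mice. The 2 genes may share probe signal and are not independent. Orm2, an orosomucoid gene, had 844, 691 and 1576 in M1 mice, against 31267, 1143 and 2681 in L1 mice, a difference of -2.23 ± 0.79 with L1 mouse 1 and -0.84 ± 0.52 without. Its close copy Orm3 was -2.31 ± 0.82. Il1rn, which encodes the antagonist of the interleukin 1 receptor, had 172, 173 and 128 in M1 mice, against 521, 214 and 368 in L1 mice, separate groups at low signal (-1.11 ± 0.35). Without L1 mouse 1 the median of the list was 0.02.

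The same L1 mouse was highest for Lcn2 and Mt1. Lcn2 encodes an iron-scavenging lipocalin of neutrophils that inflamed hepatocytes also make. It had 675, 455 and 1030.0 in M1 mice, against 28487, 512 and 2149 in L1 mice, a difference of -2.20 ± 0.93, or -0.62 ± 0.65 without L1 mouse 1. Mt1, a metallothionein gene induced by metals, stress and inflammation, had 566, 579.7 and 661 in M1 mice, against 11343, 692 and 1302 in L1 mice, and 575 in the pool. Its M1 mice were tightly grouped below all L1 mice, the difference was -1.84 ± 0.67 (limma adjusted p = 0.549), and without L1 mouse 1 it was -0.66 ± 0.44. The other probe set of Mt1, below the filter on low signals, had the opposite sign. Neutrophil markers summed to 1368 to 2765 in M1 and 1412 to 32262 in L1, where L1 mouse 1 was the highest at 32262 and L1 mouse 2 the lowest at 1412. Lcn2 is itself 1 of these markers and alone read 28487 in L1 mouse 1, so the sum largely repeats the Lcn2 value. All 5 neutrophil markers tested, Lcn2 among them, were lower (median -0.69, or -0.12 without L1 mouse 1). The labels do not describe the health of that animal, and the part of neutrophils in the acute phase values was not tested.

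**Figure D2:**
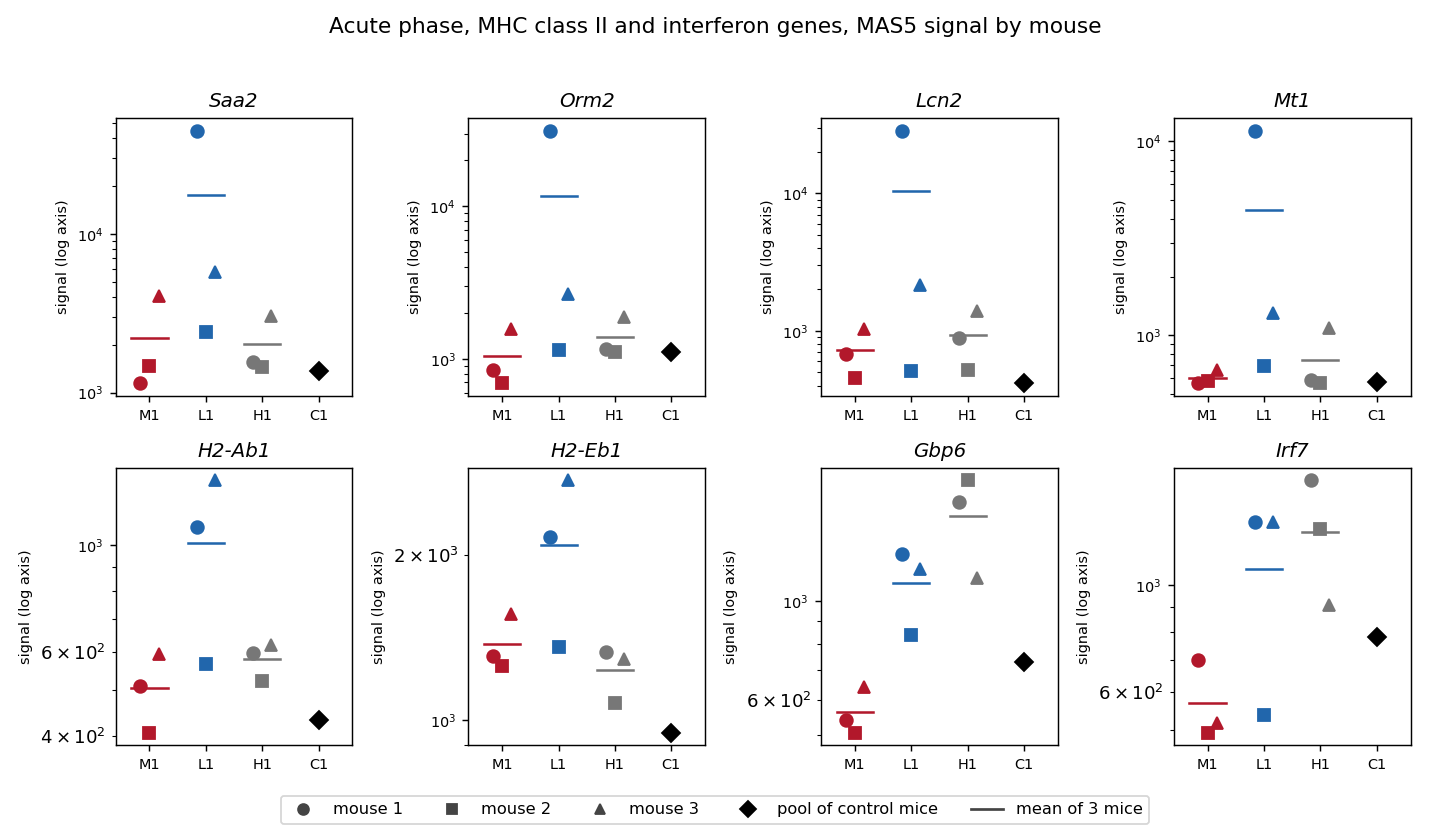
MAS5 signal (log axis) of 4 genes of the acute phase or stress response (top row) and 4 of MHC class II or interferon response (bottom row) in each mouse of M1, L1 and H1 and in the C1 pool, with a line at the mean of 3 mice. L1 mouse 1 alone is high in the top row, with Saa2 at 44496 against 1144 to 4050.4 in M1, while L1 mice 1 and 3 are both high for H2-Ab1, H2-Eb1 and Irf7 and L1 mouse 2 is not.

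Collagen and stellate cell genes were mostly lowest in L1 mouse 2 among the L1 mice. Of 35 extracellular matrix genes tested, 21 were higher and 14 lower in M1, and of 11 stellate cell and fibroblast markers 4 were higher and 7 lower (median -0.33, or -0.15 without L1 mouse 3). The members with an unadjusted p under 0.05 were all lower, against 4.12% of all genes in that direction. They were 2 of the 35 matrix genes, near that share, and 3 of the 11 markers, and the lists share Lum and Col1a1. Lum, a matrix proteoglycan gene, had 511, 432 and 643 in M1 mice, against 1084, 483 and 935 in L1 mice (-0.59 ± 0.28), and Col1a1, the main fibrillar collagen of scar tissue, had 20.8, 15.5 and 14.5 in M1 mice, against 208, 31.6 and 64.7 in L1 mice, signals under the array medians in all mice but 1. The third marker was Lrat, which esterifies retinol for storage (-0.33 ± 0.15). L1 mouse 2 was the lowest of the 3 L1 mice in 32 of the 35 matrix genes (91.4%, against 35.6% of all genes). The median of that list was 0.04 with all mice, -0.24 without L1 mouse 2 and 0.12 without L1 mouse 1, so that its sign depended on the mouse left out.

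Genes of the radiation response showed little. Of 29 p53 targets and checkpoint genes tested, 16 were higher and 13 lower (median 0.04), and 0 had an unadjusted p under 0.05, against 8.25% of all genes. Cdkn1a, which encodes the cell cycle inhibitor p21, had 232, 488 and 228 in M1 mice, against 552, 228 and 469 in L1 mice (-0.39 ± 0.37). Mdm2, the ubiquitin ligase gene that p53 induces to limit itself, had 729.8, 255 and 443 in M1 mice, against 492, 372 and 346 in L1 mice (0.13 ± 0.28), and cyclin G1 (Ccng1), another p53 target, had 1555, 1947 and 1817 in M1 mice, against 1823, 1539.9 and 1988 in L1 mice (-0.01 ± 0.15). These 3 genes were named after their values were seen, and in each the groups overlapped widely. Of 40 DNA repair genes, 26 were higher (median 0.04), with Xpa, which verifies damage in nucleotide excision repair (0.42 ± 0.17), and Msh6, of mismatch repair (0.41 ± 0.15), at an unadjusted p under 0.05, against 4.12% of all genes in that direction. Of the 40, groups were separate for 1 higher gene, Msh6, and for 2 lower ones, against 5.85% and 5.38% of all genes, so no more often than among all genes. The lower ones were Ogg1 at -0.20 ± 0.37 and Rad50 at -0.25 ± 0.20, both named after their values were seen. Msh6 had 367, 403 and 346 in M1 mice, against 271, 262 and 304 in L1 mice. For Xpa, 1 of 2 other probe sets, both below the filter, had the opposite sign. Among 30 cell cycle genes 18 were lower (median -0.03).

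Antioxidant and NRF2 target genes were split, 17 higher and 24 lower of 41 (median -0.06). Gclc, the rate-limiting enzyme gene of glutathione synthesis, had 19607, 22974 and 18058 in M1 mice, against 17962, 13797 and 13858 in L1 mice (0.41 ± 0.13). Heme oxygenase 1 (Hmox1) went the other way with 415, 376 and 489 in M1 mice, against 819.9, 456 and 782 in L1 mice (-0.64 ± 0.20), and so did the plasma glutathione peroxidase gene Gpx3 (-0.58 ± 0.23). In both the L1 mouse 2 signal was the lowest of the L1 mice.

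Clock genes were evenly split, 11 higher and 11 lower of 22 (median 0.01). Npas2, an activator of the clock, had 127, 217 and 119 in M1 mice, against 42.8, 89.8 and 65.3 in L1 mice (1.15 ± 0.46), and the repressor Per1 had 75.6, 23.2 and 100.97 in M1 mice, against 208, 104 and 134 in L1 mice (-1.22 ± 0.50). Both had separate groups at low signal. They were the 1 higher and 1 lower of the 22 with separate groups, and also with an unadjusted p under 0.05. These counts were near the shares of all genes, 5.85% and 5.38% for separate groups and 4.12% in each direction for that p. The 1 other probe set of Npas2, below the filter, had the opposite sign. Arntl, the gene of BMAL1, was 0.35 ± 0.27 and Per2 0.46 ± 0.31 (both named after their values were seen), within the spread between mice. Glucocorticoid-induced genes went both ways, with 5 higher and 5 lower of 22 at an unadjusted p under 0.05, against 4.12% of all genes in each direction. The higher ones were Dusp1, Tat, the kinase gene Sgk1 (0.55 ± 0.18), the tryptophan dioxygenase gene Tdo2 (0.26 ± 0.08) and the glucocorticoid receptor gene Nr3c1 itself (0.36 ± 0.13, named after its value was seen), and the lower ones included Angptl4, Mt1 and Per1.

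Chaperone genes were mostly lower, by small amounts. Of 29 heat shock genes, 23 were lower (median -0.12). At an unadjusted p under 0.05 there were 3 lower and 1 higher, against 4.12% of all genes in each direction. Hspa8, the constitutive HSC70 chaperone, had 9156, 5994 and 8999 in M1 mice, against 13239, 10778 and 10031 in L1 mice (-0.51 ± 0.21), with 1 of 3 other probe sets opposite. Hspa4l (-0.31 ± 0.14) and Hspb8 (-0.30 ± 0.13) were lower and Hspa4 (0.28 ± 0.12, 2 of 3 other probe sets opposite) higher. The inducible Hspa1b, named after its values were seen, spread over 1629.5, 750.3 and 2755 in M1 mice, against 3698, 2916 and 1518 in L1 mice, with 5454 in the pool. In the list of ER stress and the amino acid response, 30 of 40 were lower (median -0.10, or -0.18 without L1 mouse 2), among them Chac1, which breaks down glutathione, at -0.81 ± 0.29, and calnexin (Canx) at -0.48 ± 0.23. These were the 2 lower members with an unadjusted p under 0.05, against 4.12% of all genes, and 2 members were higher at that p, the cysteine synthesis gene Cth (0.29 ± 0.13) and Sel1l, of the degradation of misfolded proteins (0.29 ± 0.14). With median-centred arrays the medians were -0.07 for heat shock and -0.04 for ER stress genes.

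Genes with very high signal were mostly slightly higher in M1. Of the 209 genes with a mean signal over 20000, 83.3% were higher in M1 (median 0.11), against 44.0% of the 5376 genes under 500 (median -0.05). After quantile normalization the share over 20000 was 56.9% and the median 0.03. Many liver lists hold such genes. Hepatocyte markers were higher in 10 of 11 (median 0.18, or 0.03 after quantile normalization), with transthyretin (Ttr) at 62033, 68658 and 64322 in M1 mice, against 56035, 57313 and 53294 in L1 mice (0.23 ± 0.08) and Apoa1, of high-density lipoprotein, at 0.19 ± 0.09. Oxidative phosphorylation genes were higher in 59 of 71 (median 0.09, or 0.06 after quantile normalization), with Cox4i1, a cytochrome oxidase subunit, at 0.22 ± 0.09. Without L1 mouse 1 that median was 0.02. Proteasome genes were higher in 26 of 31 (median 0.12, 0.11 after quantile normalization and 0.07 without M1 mouse 3), with Psma2 at 0.29 ± 0.12, and ribosomal protein genes in 27 of 37 (median 0.05, or 0.02 after quantile normalization), with Rps14 at 0.23 ± 0.09.

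Urea cycle and amino acid breakdown genes were split, 21 higher and 17 lower of 38 (median 0.05, or 0.015 after quantile normalization). At an unadjusted p under 0.05 there were 6 higher and 1 lower, against 4.12% of all genes in each direction. Glud1, glutamate dehydrogenase, had 24213, 25929 and 24100.1 in M1 mice, against 22847, 18893 and 17566 in L1 mice, separate groups with a difference of 0.33 ± 0.09 (limma adjusted p = 0.413). Arg1, the last enzyme of the urea cycle, was 0.23 ± 0.09. Ass1, of the same cycle, read 463, 458 and 181 in M1 mice, against 203, 163 and 188 in L1 mice on the probe set used, with M1 mouse 3 among the L1 mice (0.85 ± 0.32). Cyp3a25, a drug-oxidizing P450, had 32297, 34077 and 31630.2 in M1 mice, against 27733, 26088 and 25142 in L1 mice (0.31 ± 0.08, limma adjusted p = 0.323), Cyp3a11 was 0.20 ± 0.07 and the sulfotransferase gene Sult1a1 was 0.37 ± 0.13. Cyp3a genes are close copies and can share probe signal. The P450, UGT and SULT list as a whole was split, 25 higher and 28 lower of 53.

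Lipid synthesis showed no common direction. Cholesterol synthesis genes were 10 higher and 10 lower (median 0.04), with the cyclase gene Lss at 0.61 ± 0.27. For Lss, 1 of 2 other probe sets, below the filter, had the opposite sign. Fatty acid synthesis genes were lower in 20 of 30, 0 with an unadjusted p under 0.05 (median -0.04). For fatty acid oxidation with PPAR alpha targets, 29 of 47 were higher (median 0.08, or -0.02 without M1 mouse 2), among them Acadvl, of very long chain oxidation, at 0.22 ± 0.08, while the peroxisomal reductase gene Decr2 was -0.43 ± 0.17. Male-biased genes that depend on growth hormone were 14 higher and 17 lower, and L1 mouse 2 held the highest of the 6 signals in 18 of these 31.

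**Figure D3:**
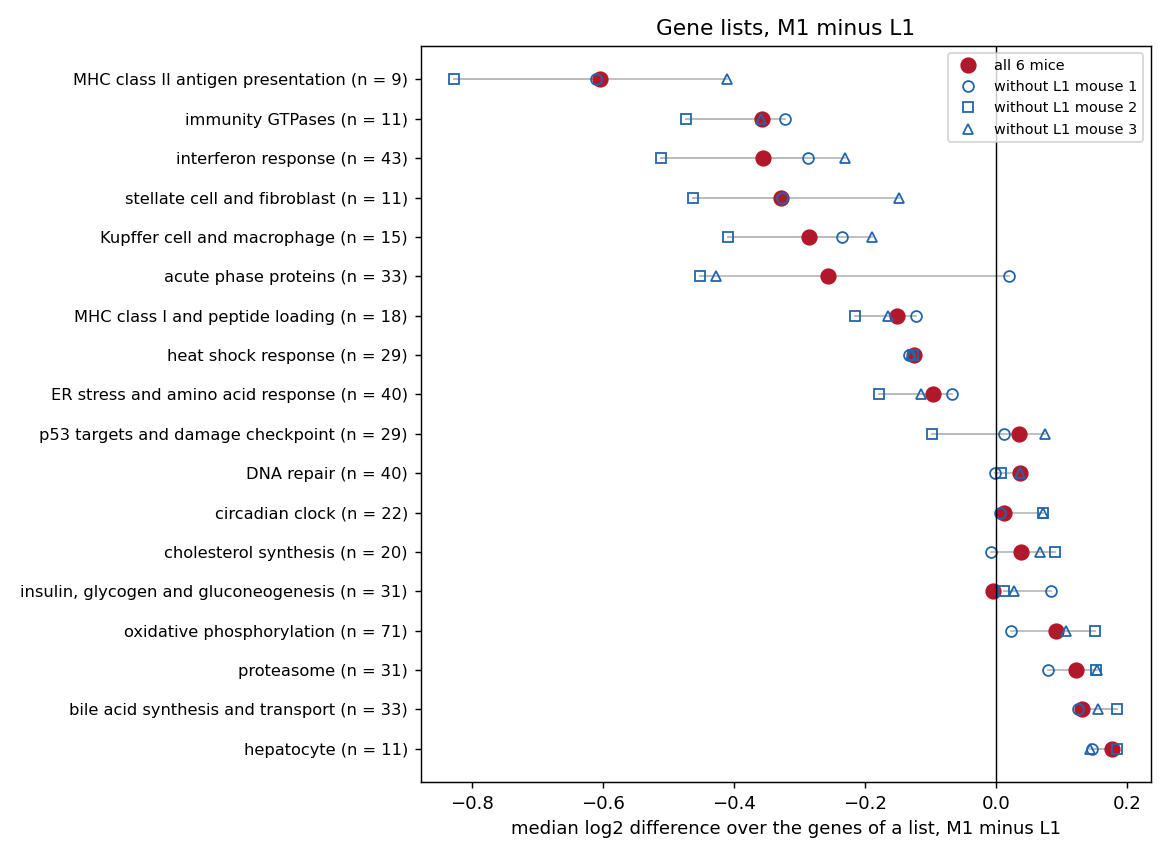
Median log2 difference, M1 minus L1, over the tested genes of 18 lists, with all 6 mice (filled circles) and without each L1 mouse in turn (open symbols), and n the genes tested. The acute phase median is -0.26 with all mice and 0.02 without L1 mouse 1, whereas the MHC class II median stays between -0.83 and -0.41.

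The second experiment repeated the contrast in other mice at nearly the same dose-rates, 401 days in place of 485. The test of the difference between experiments, (M1 minus L1) minus (M2 minus L2), gave 0 of 11206 genes at a limma adjusted p under 0.05 and 955 (8.52%) at an unadjusted p under 0.05. For M2 against L2 limma called 2 genes (0.0178%), with 1064 (9.49%) at an unadjusted p under 0.05, 583 higher (5.2%) and 481 lower (4.29%) in M2. Across genes the differences of the experiments had a Pearson r of -0.0563 and a Spearman rho of -0.0342, over 11206 genes that are not independent replicates.

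Several of the genes described above had opposite signs in the experiments. Angptl8 was 0.96 ± 0.32 in experiment 1 and -1.74 ± 0.32 in experiment 2, where its signals were 905, 1135 and 1088 in M2 mice, against 5392, 4067 and 1944 in L2 mice. Between the experiments this differed by 2.70 ± 0.46 (limma adjusted p = 0.0683). Gbp6 was -0.94 ± 0.26 and 1.20 ± 0.26 (difference -2.14 ± 0.37, limma adjusted p = 0.0683), Dennd11 0.62 ± 0.13 and -0.47 ± 0.13 (limma adjusted p = 0.0683), and G0s2 1.11 ± 0.27 and -0.90 ± 0.27 (limma adjusted p = 0.135). G0s2 had 4106, 4222 and 9584 in M2 mice, against 9165, 7716 and 15298 in L2 mice. These 4 had the smallest p of that test, so their opposite signs are part of how they were chosen. None passed, but with median-centred arrays Angptl8, Dennd11 and G0s2 did (limma adjusted p = 0.0438 each). Dusp1 (-1.003 in experiment 2), Nr0b2 (-0.85 ± 0.31), Cyp26a1 (1.08 ± 0.35) and Phlda1 (1.14 ± 0.45) also had the opposite sign, while Ppp1r3c was -0.05 ± 0.19 and G6pc 0.49 ± 0.34. Fzd6 (0.54 ± 0.25 in experiment 2), H2bc22 (-0.95 ± 0.37) and Hmox1 (-0.54 ± 0.20) kept their sign, with separate M2 and L2 groups. Opposite signs were not counted over all genes.

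The immune lists went opposite ways as well. MHC class II genes had a median of 0.51 in experiment 2, with 8 of 9 higher in M2. H2-Eb1 had 2114, 1757 and 1973 in M2 mice, against 1088, 1097 and 1185 in L2 mice, separate groups, and its difference between experiments was -1.34 ± 0.26 (limma adjusted p = 0.135). The interferon list had a median of 0.33 with 39 of 43 higher, and the immunity GTPases of 0.42 with 9 of 11 higher. Kupffer cell markers kept their sign (-0.15, 13 of 15 lower), and so did heat shock (-0.17) and ER stress genes (-0.17).

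**Figure D4:**
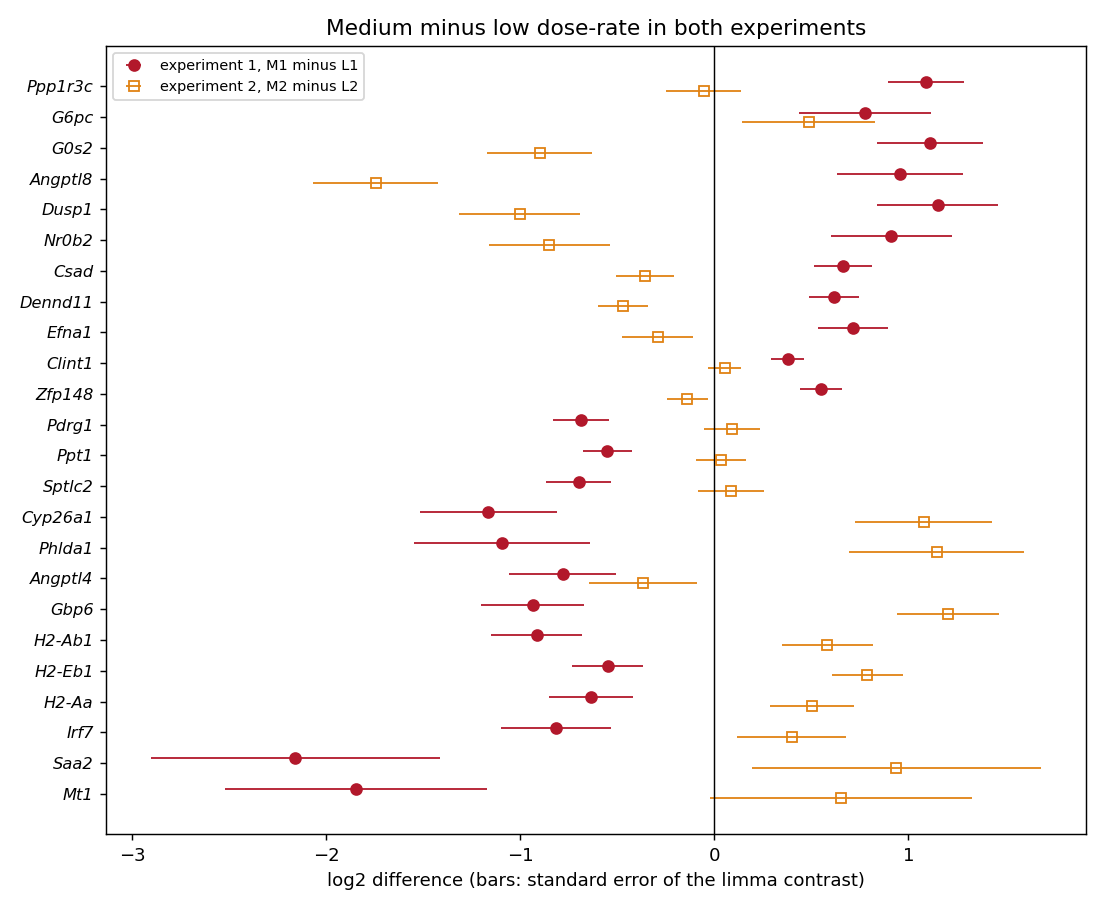
Log2 difference of medium minus low dose-rate for 24 genes in experiment 1 (filled circles, M1 minus L1) and experiment 2 (open squares, M2 minus L2), with bars of 1 standard error of the limma contrast. Angptl8, G0s2, Dusp1 and Nr0b2 lie right of 0 in experiment 1 and left of it in experiment 2, Gbp6 and the H2 genes the reverse, and Ppp1r3c is near 0 in experiment 2.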

How the data were processed

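Liver RNA was hybridized to 20 Affymetrix arrays. The authors deposited linear signal intensity from MAS5, per the submitters' processing notes, whose version is not given here, and their scaling was kept. The platform annotation named 34945 of 45101 probe sets with 1 symbol, 932 with several and 9160 with none, and 64 were controls. The probe sets whose mean signal reached the median were kept (22551), with 1 per gene (11206 genes), preferring names without the _s_at or _x_at suffix and then the highest mean. Values were log2(signal + 7.12). A limma 3.58.1 model in R 4.3.3 (lmFit, eBayes with trend) took the 8 group means of all 20 arrays, so that groups share 1 spread (12 residual degrees of freedom). Tests were two-sided with Benjamini-Hochberg adjustment at 0.05 and were tested on simulated data. P-values measure the spread between mice, 1 array each, and the number of arrays limits precision.

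Named genes were the 8 smallest p in each direction, the 8 largest differences in each direction among genes with separate groups and means of at least 500, up to 4 members per list at an unadjusted p under 0.05, and the 4 smallest p of the difference between experiments. Members and lists (32 pathways, 16 cell types) were chosen with earlier results of these data known. Alternatives changed the pseudocount, filter, probe set choice, normalization, variance model, arrays fitted, replicate block and single mice.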

Additional observations from a re-analysis of the deposited data

Results flagged for a closer look

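Gene lists with opposite directions in the experiments stood out because every M1 mouse lay on one side of the mean of the L1 mice and every M2 mouse on the other side of the mean of the L2 mice, taking the median log2 level of a list in each mouse. For MHC class II antigen presentation the median difference was -0.60 for M1 minus L1 and 0.51 for M2 minus L2. For the interferon response it was -0.36 and 0.33, for the immunity GTPases -0.36 and 0.42, for MHC class I and peptide loading -0.15 and 0.14, and for stellate cell and fibroblast markers -0.33 and 0.43. The levels of M1 and L1 mice still overlapped for all but the class I list. Relative to the L1 mean, L1 mouse 2 and M1 mouse 3 were at -0.42 and -0.23 for class II. They were at -0.33 and -0.24 for interferon and -0.22 and -0.16 for the GTPases. For stellate cell markers L1 mouse 2, at -0.49, was below every M1 mouse. The difference between experiments was not tested for a list as a whole. Gene by gene limma gave 0 genes past the adjusted threshold and 955 at an unadjusted p under 0.05.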

How the results depend on the processing

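Of 131 named genes, 124 kept their sign in every one of the 18 alternatives that tested them (21 genes were not among the highest 30% of probe sets). The genes were named for their values in these same mice, and separate groups cannot change sign when 1 mouse is left out. This count is therefore no separate support for the differences. M1 against L1 gave 0 genes at a limma adjusted p under 0.05 in all but 2 settings. Those were leaving out L1 mouse 2, with 1 gene (H2-Ab1), and testing all probe sets above the filter, an alternative chosen after seeing the data, with 1 unnamed probe set of 22492 (log2 2.54, limma adjusted p = 0.0406). Genes lower at an unadjusted p under 0.05 numbered 710 without the filter (18193 genes tested), 289 with the highest 30% of probe sets (7885 genes) and 239 with median-centred arrays, where 3 genes passed the difference between experiments (Angptl8, Dennd11 and G0s2). With only the 6 arrays of M1 and L1, 302 were higher. Leaving out 1 mouse gave 0 to 1 genes at an adjusted p under 0.05, 584 to 1203 at an unadjusted one (fewest without M1 mouse 2), 285 to 568 higher and 299 to 635 lower, and for the difference between experiments 0 to 13 adjusted (13 without L1 mouse 2) and 744 to 1294 unadjusted. The sign turned for Mt1 (0.50) and Angptl4 (1.36) without the filter and Upk1b (1.17) with the highest mean whatever the suffix, where other probe sets were read, for Fbp1 (-0.0041) after quantile normalization and for Ccng1 (0.052) with median-centred arrays. Without 1 mouse, Igfbp1 ran from -0.36 to 0.38, Mdm2 from -0.24 to 0.51 and Ccng1 from -0.11 to 0.084. The main model did not pair mice by number. Correlations of deviations were 0.161, 0.0558 and 0.107 for same-numbered mice, and -0.161 to 0.0569 for the other pairs. With a replicate block 0 genes passed for M1 against L1 with 1156 at an unadjusted p under 0.05, and 4 passed the difference between experiments (Dennd11, G0s2, H2-Eb1 and Stap1). Of 48 list medians, 24 moved by more than the spread between mice in some alternative. The cause was not tested. Genes near background have uncertain sizes.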
